A study of Homo sapiens with 12 samples.

Results

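BT549 is a human triple-negative breast cancer cell line with mesenchymal traits. The series held 12 Affymetrix arrays of these cells, and the 6 arrays of its 2 control transfections were set against each other here. In 3 arrays the cells had received the pcDNA3 plasmid without an insert (empty vector) and were lysed 24 h later. In the other 3 arrays they had received a control siRNA and were lysed after 48 h. According to the study's methods the plasmid was delivered with a cationic lipid (a Lipofectamine reagent) to denser cultures and the siRNA with INTERFERin to sparser ones. The empty vector carries no coding insert, neither group had a deliberate change of any gene, and both came from the same parental line. Nucleic acid, reagent, time after transfection and cell density all differed between the groups and cannot be told apart by these arrays, and no array of untransfected cells was analysed here. The remaining 6 arrays, 3 of cells with the plasmid for FLAG-tagged ERβ2 at 24 h and 3 of cells with ERβ2 siRNA at 48 h, share no array with the first 6 and were used as a second comparison of plasmid with siRNA. Of 33297 transcript clusters (sets of probes summarised into 1 log2 value), 19181 carried exactly 1 gene symbol, and the brightest cluster of each gene gave 17958 genes.

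Cells sense foreign nucleic acid with receptors of the RIG-I family and with TLR3 for RNA, and with cGAS and IFI16 for DNA. These act through adaptors and kinases on the factors IRF3, IRF7 and NF-kB, which switch on interferon-beta and interferon-lambda. The secreted interferons bind receptors on the same and on neighbouring cells, and the kinases JAK1 and TYK2 then activate the complex ISGF3, whose DNA-binding part is IRF9. ISGF3 binds the interferon-stimulated response element (ISRE) before many genes whose products block viral RNA, protein synthesis and budding or raise antigen presentation. Plasmid DNA and double-stranded RNA are both known triggers of this pathway when they are carried into cells.

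The genes of this programme were higher in the arrays with the empty vector than in those with control siRNA, by up to 6.81 on the log2 scale. Of the 17958 genes, 1000 (5.57%) were called higher and 233 (1.3%) were called lower with the empty vector, where limma had to give a 1.5-fold change or more, p below 0.05 before adjustment and 0.1 or below after it. Of these calls 81.1% were higher, and 71.9% after quantile normalization again (879 higher and 344 lower). At an adjusted p of at most 0.1 alone, which is the threshold at which a single gene is said below to have risen or fallen, 19.2% of all genes were higher and 22.4% were lower. The median difference of all genes was −0.06 on the log2 scale, with quartiles of −0.18 and 0.12. In 47.2% of all genes the 3 arrays of one group did not overlap the 3 of the other. Large changes went mostly upward, since 48 genes rose at least 8-fold and no called gene fell by as much. Of the 23 genes that rose at least 16-fold, 20 were on a list of 53 measured interferon-induced effectors. A bulk array reads the whole culture, so more RNA per cell and more cells with that RNA cannot be told apart.

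The promoters of the genes with the largest rises are shown first, since many hold the letters of the ISRE. The sequences come from RefSeq (build GRCh38.p14), in windows of 300 bases, 250 before and 50 after each transcript's start. The core searched was GAAANNGAAA on either strand (TTTCNNTTTC when read on the gene's own strand), printed here in capitals within lower-case flanks. The printed lines are those of the 15 largest rises in which a short stretch holds all matches before the start site, and of ISG15, IFNL1, TAP1 and B2M, which are described below. In MX1 the match lies just after the start site, so 30 bases are shown.
IFI44L (chr1:78620269-78620399, + strand): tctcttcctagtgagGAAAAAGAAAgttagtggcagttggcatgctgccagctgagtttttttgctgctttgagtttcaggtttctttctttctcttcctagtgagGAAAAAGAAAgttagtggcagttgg
MX1 (chr21:41420559-41420588, + strand): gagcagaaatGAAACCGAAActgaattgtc
IFIT1 (chr10:89392492-89392544, + strand): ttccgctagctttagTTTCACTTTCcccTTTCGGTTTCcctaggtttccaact
IFI44 (chr1:78649756-78649788, + strand): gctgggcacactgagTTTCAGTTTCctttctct
CXCL10 (chr4:76023694-76023733, - strand): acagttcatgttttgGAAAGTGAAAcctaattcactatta
RSAD2 (chr2:6877617-6877656, + strand): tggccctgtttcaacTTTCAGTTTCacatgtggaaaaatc
IFIT3 (chr10:89327826-89327899, + strand): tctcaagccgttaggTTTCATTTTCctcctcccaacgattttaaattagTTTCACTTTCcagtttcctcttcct
ISG15 (chr1:1013369-1013414, + strand): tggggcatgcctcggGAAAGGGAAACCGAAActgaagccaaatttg
IFNL1 (chr19:39296178-39296223, + strand): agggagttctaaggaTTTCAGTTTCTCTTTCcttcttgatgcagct
TAP1 (chr6:32853808-32853853, - strand): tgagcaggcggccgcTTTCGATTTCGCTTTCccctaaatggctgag
B2M (chr15:44711358-44711403, + strand): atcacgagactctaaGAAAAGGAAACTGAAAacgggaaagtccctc
In IFIT1, IFIT3 and IFI44L 2 cores stand apart from each other, while in ISG15, IFNL1, TAP1 and B2M 2 cores share a block of letters. In IFIT1 the cores start 116 and 103 bases before the start site, and in CXCL10 the core starts 221 bases before it.

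Of the 15 genes with the largest rise, 13 had a promoter in the table and 9 held the core. So did 30 of 44 interferon-induced effectors (68.2%) and 11 of 15 genes of MHC class I presentation (73.3%). The ISRE is known to lie before many genes of these kinds, so the shares of both lists say nothing about this comparison. Among all 35116 promoter windows of that length the share was 3.57%, and among the 13864 measured genes with a promoter it was 4.12%. HERC6, OAS1, SAMD9L and XAF1 were among the 15 largest rises without these letters in the window, which says nothing about factors bound elsewhere. IFIT2 and OAS2 were not in the promoter table. The share with the core went up with the size of the rise. It was 3.7% in genes not called, 5% in genes called with a rise under 2-fold, 13.1% from 2-fold to under 4-fold, 35.3% from 4-fold to under 8-fold (12 of 34 genes) and 67.6% at 8-fold or more (25 of 37 genes). In genes called lower it was 2.19% (4 of 183). Of all 48 genes called with a rise of at least 8-fold, 31 were on the list of effectors, as were 40 of the 91 with at least 4-fold. The shares in the groups with the largest rises are thus not independent of that list. The AP-1 site TGANTCA, which reads the same on both strands, was found in 7.71% of all windows, in 8% of the measured genes and in 13.5% of the genes with a rise of 8-fold or more (5 of 37), and the CCAAT box (CCAAT or ATTGG) in 34.6%, 42.4% and 35.1% (13 of 37). Motifs were counted separately, so matches of different motifs may overlap. The shares are descriptions of letters in the windows, with no test.

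**Figure D1:**
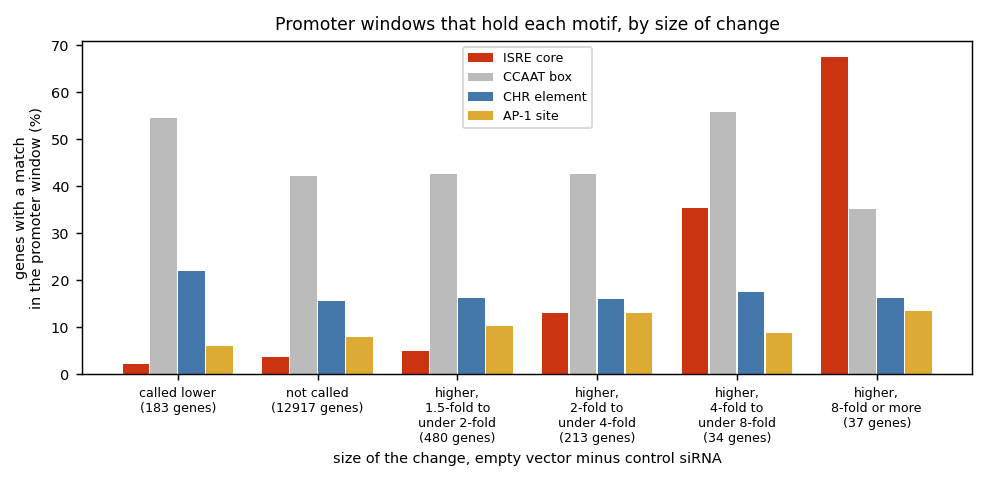
Share of genes (vertical axis, in %) whose promoter window holds each of 4 motifs, for genes grouped by their change between empty vector and control siRNA (horizontal axis, with the number of genes that have a promoter). The red bars of the ISRE core go from 3.7% in genes not called to 67.6% in genes with a rise of 8-fold or more, while the grey bars of the CCAAT box stay between 35.1% and 55.9%. Of all 48 genes with a rise of 8-fold or more, with or without a promoter, 31 were on the list of interferon-induced effectors.

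Of the interferons measured on the list, IFNB1 and IFNL1 were called higher. IFNB1, which encodes interferon-beta, had log2 values of 3.64, 3.68 and 3.35 with control siRNA and of 7.43, 7.56 and 7.1 with the empty vector. The groups were far apart, and the difference was 3.81 (standard error 0.13, 95% interval 3.51 to 4.10), a 14-fold rise of the summarised signal with an adjusted p of 1.75e-07. IFNL1, a type III interferon that acts mainly on epithelial cells, had values of 5.36, 4.73 and 5.3 with control siRNA against 7.56, 7.45 and 7.56, a rise of 2.39 (standard error 0.15). Its promoter, printed above, holds 2 cores that share a block. IFNL3, its relative, rose by 0.32, while IFNG, the interferon of T and NK cells, differed by −0.05 and did not pass. IFNK, an interferon of keratinocytes, fell by 0.17, which no longer passed without control siRNA replicate 1 or 3 or without empty vector replicate 1 or 2 (differences of −0.15, −0.15, −0.14 and −0.18, adjusted p from 0.109 to 0.224). IFNA1 and IFNL2 lay only in clusters with several symbols and were not used. No other interferon-alpha gene was on the list, so interferon-alpha was not examined. Of 13 measured interferons and receptors 6 rose and 1 fell, with a median of 0.04 against −0.06 over all genes, and 2 were called higher. Among the receptor chains, IFNAR2, of the type I receptor, rose by 0.39, and IFNLR1, the chain particular to type III interferons, differed by −0.13, which did not pass.

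The 4 sensors and regulators with the largest rises were IFIH1, RIGI, TLR3 and DHX58, all of which bind RNA. IFIH1, which encodes the long double-stranded RNA sensor MDA5, had log2 values of 4.5, 3.9 and 4.4 with control siRNA and of 9.62, 9.49 and 9.61 with the empty vector, a difference of 5.31 (standard error 0.14) or 39.6-fold. RIGI, which senses short RNA with a triphosphate end, had 7.65, 7.56 and 7.5 against 11.55, 11.46 and 11.6, a rise of 3.97 (standard error 0.07). TLR3, the endosomal receptor of double-stranded RNA, rose by 3.72 (standard error 0.08), from 5.58, 5.36 and 5.55 to 9.21, 9.13 and 9.31. No array of one group came near those of the other in these 3 genes. DHX58, which encodes the regulator LGP2 of that family, rose by 3.05. Other RNA sensors did not pass, with differences of −0.08 for TLR7 and −0.19 for TLR8, the endosomal receptors of single-stranded RNA. Of the DNA branch, IFI16 rose by 1.77, STING1, the adaptor that cGAS signals to, by 1.18 and CGAS by 0.59. MYD88, the adaptor of most Toll-like receptors, rose by 1.14. ZBP1 (0.05) and AIM2 (−0.12), which bind unusual nucleic acid helices and DNA, did not pass either. Without 1 array, TLR8 passed (−0.28 without control siRNA replicate 1, adjusted p = 0.0219) and so did AIM2 (−0.18 without empty vector replicate 2, adjusted p = 0.0827). The adaptor MAVS differed by −0.11, the kinase TBK1 by 0.09 and the adaptor TICAM1 of TLR3 by 0.11, none of which passed. IKBKE, a kinase akin to TBK1, fell by 0.36 and PYCARD, the inflammasome adaptor, by 0.42. The third fall, of TLR9 by 0.25, did not pass without any 1 of control siRNA replicates 1, 2 and 3 and empty vector replicates 2 and 3 (−0.29 to −0.14, adjusted p from 0.109 to 0.213). In all, 8 of 20 genes rose, all 8 of them called, and 3 fell, with a median of 0.10.

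Of 8 measured interferon regulatory factors 4 rose and none fell at an adjusted p of at most 0.1, with a median of 0.36. IRF7, which drives later interferon genes, had log2 values of 6.05, 6.03 and 6.22 against 7.97, 8.04 and 7.96, a rise of 1.89 (standard error 0.07). IRF1 rose by 1.66, IRF9 by 1.56 and IRF2 by 0.79. IRF3, which is made at all times and switched on by phosphorylation, differed by −0.07 and did not pass. In the list of JAK kinases, STAT factors and SOCS inhibitors 6 of 13 rose and 2 fell (median 0.11). JAK2 rose by 1.05, SOCS2 by 0.63, STAT5A by 0.42 and SOCS3 by 0.37, and JAK1 differed by less than 0.01 in size. SOCS1, an inhibitor of JAK kinases that is itself interferon-induced in many cells, fell by 0.33 (standard error 0.07, adjusted p = 0.00647), and TYK2 fell by 0.22.

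**Figure D2:**
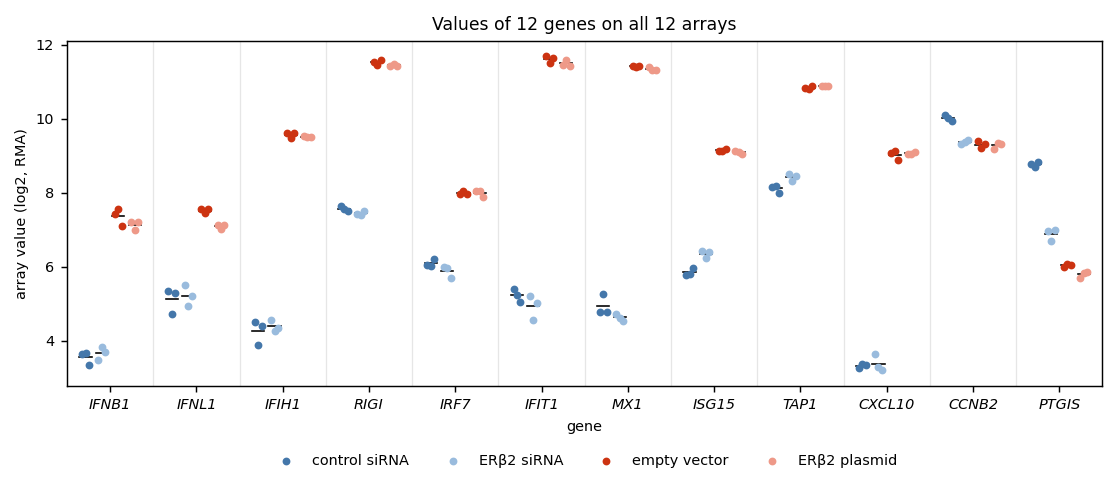
Log2 array values (vertical axis) of 12 genes (horizontal axis), with 1 point for each of the 12 arrays, the colour for the group and a bar for the mean of 3 arrays. From IFNB1 to CXCL10 all arrays with a plasmid lie above all arrays with an siRNA, by a mean of 6.48 for MX1 and 1.89 for IRF7 between the 2 controls, while CCNB2 is highest with control siRNA alone and PTGIS falls in steps over the groups.

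The interferon-induced effectors rose almost as a block. Of 53 measured members 51 rose, 50 of them were called higher, and the 3 empty vector arrays lay above all control siRNA arrays in the same number as rose, 51. The median difference was 3.52, against −0.06 over all genes. Averaged over the members, the arrays with control siRNA gave log2 values of 6.09, 6.1 and 6.12 and those with the empty vector 9.57, 9.56 and 9.57. The members nonetheless ranged from −0.01 to 6.81. IFI44L, an inhibitor of viral spread, had the largest rise of any gene, with 4.8, 4.83 and 5.09 against 11.79, 11.63 and 11.73, a difference of 6.81 (standard error 0.09) or 112-fold. MX1, a GTPase that traps viral nucleocapsids, had 4.79, 5.27 and 4.77 against 11.44, 11.4 and 11.43, which is 6.48 (standard error 0.12). IFIT1, which binds RNA that lacks host cap marks, had 5.41, 5.24 and 5.06 against 11.69, 11.5 and 11.65, which is 6.38 (standard error 0.10). In these genes the arrays of a group lay close together and the groups were far apart.

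Related effectors moved with them. IFIT2 rose by 6.21, OAS2, which makes the messenger that activates RNase L, by 6.11 and IFI44 by 5.99. HERC6 rose by 5.72, OAS1 by 5.71, RSAD2, which makes a chain-terminating nucleotide, by 5.68, SAMD9L by 5.59, XAF1 by 5.44, IFIT3 by 5.36 and OAS3 by 5.30. With CXCL10 and IFIH1 these make up the 15 largest rises of all genes, and the adjusted p of those 15 ran from 5.82e-10 for IFIT2 to 3.36e-08 for IFIH1. ISG15, a ubiquitin-like modifier, had 5.79, 5.81 and 5.97 against 9.12, 9.13 and 9.19, a rise of 3.29 (standard error 0.07). At the other end of the list, IFITM3 rose by 0.59 and APOBEC3G by 0.44, while GBP2 (0.27, adjusted p = 0.112) and IFITM2 (−0.01, adjusted p = 0.960) did not pass and their groups overlapped. GBP2 passed without control siRNA replicate 3 (0.34, adjusted p = 0.0849) and without empty vector replicate 1 (0.37, adjusted p = 0.0510). The values of GBP2 lay between 3.55 and 4.15 on all 6 arrays.

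All 16 measured genes of MHC class I presentation rose, with a median of 1.43 and 13 of them called. NLRC5, the transactivator of these genes, rose by 2.88. TAP1, a subunit of the pump that brings peptides into the endoplasmic reticulum, had log2 values of 8.16, 8.2 and 8 against 10.83, 10.8 and 10.88, a rise of 2.72 (standard error 0.07), and TAP2 rose by 1.70. The immunoproteasome subunits PSMB9, PSMB8 and PSMB10 rose by 2.34, 1.91 and 1.0. B2M, the light chain, rose by 1.18, and the trimming enzymes ERAP2 and ERAP1 by 1.44 and 1.22. HLA-B rose by 1.79, HLA-F by 1.45, HLA-C by 1.41 and HLA-G by 1.40. Probes of HLA genes can bind more than 1 of them, so their single values are uncertain. The smallest rise was that of PSME1, an activator of the proteasome, at 0.38.

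Chemokines and cytokines rose in part. CXCL10, which attracts activated T cells, had log2 values of 3.26, 3.38 and 3.36 against 9.08, 9.13 and 8.88, a rise of 5.70 (standard error 0.08) or 51.9-fold. CXCL11, a ligand of the same receptor, rose by 2.54, while CXCL9, the third such ligand, differed by −0.10 and did not pass. IL6 had 7.47, 7.69 and 7.75 against 10.91, 10.96 and 10.88, a rise of 3.28, and a second, dimmer cluster of IL6 rose by 0.72. CCL5 rose by 2.88, CXCL16 by 2.53, TNFSF10, the death ligand TRAIL, by 2.31 and CCL20 by 2.23. TNF differed by 0.10, IL1B by 0.04 and IL1A by −0.06, none of which passed. Of 25 measured members 17 rose, none fell at that threshold, 13 were called and the median was 0.60. In the list of NF-kB factors and feedback genes 14 of 17 rose and 1 fell (median 0.43). TNFAIP3, which encodes the inhibitor A20, rose by 2.43, TRAF1 by 1.55, REL by 0.89 and NFKBIA by 0.83, and BCL3 fell by 0.28. Without control siRNA replicate 2, 9 members of that list rose.

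**Figure D3:**
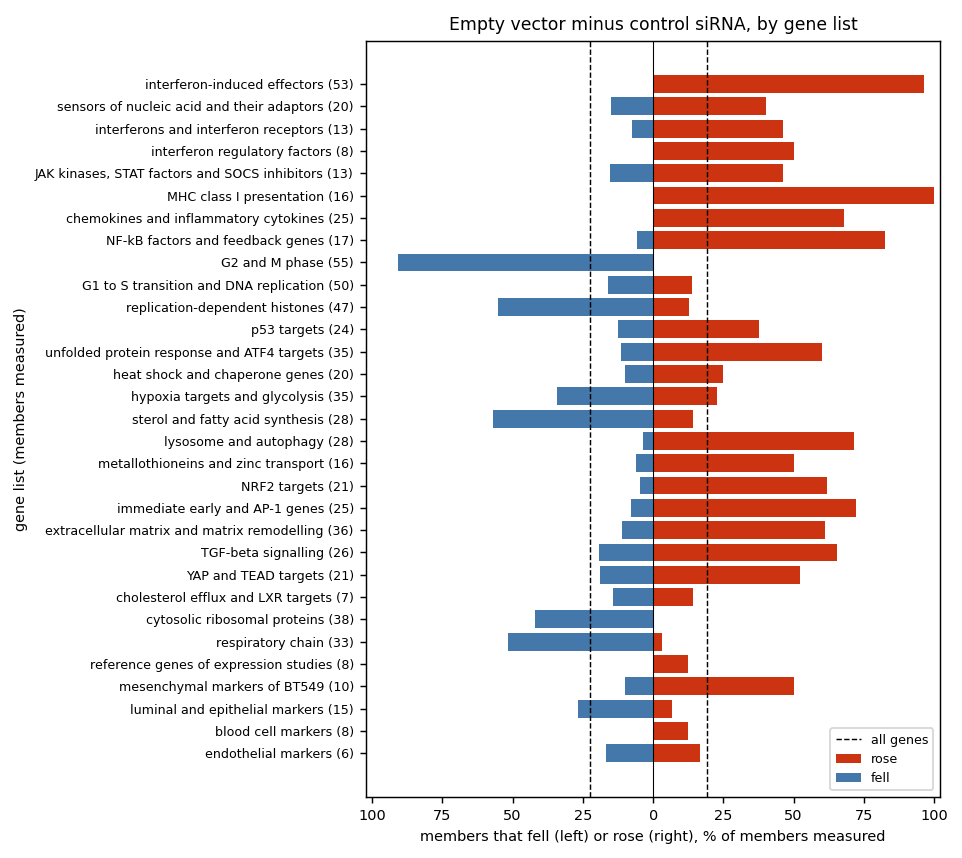
For each gene list (vertical axis, with the number of members measured), the share of members in % that rose (red, to the right) or fell (blue, to the left) with the empty vector against control siRNA (limma, adjusted p of at most 0.1). Dashed lines mark the shares over all genes, 19.2% higher and 22.4% lower, and the lists that stand farthest from them are MHC class I presentation with all 16 higher, the interferon-induced effectors with 51 of 53 higher and G2 and M phase with 50 of 55 lower.

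Outside the interferon genes, the early response and stress lists lay above the background. EGR1, an immediate early transcription factor, had log2 values of 8.45, 8.37 and 8.43 against 10.46, 10.45 and 10.5, a rise of 2.05 (standard error 0.06), and 18 of 25 immediate early and AP-1 genes rose while KLF2 (by 0.50) and NR4A1 (by 0.28) fell. KLF4 rose by 1.21, ATF3 by 1.13 and IER3 by 1.02. PMAIP1, which encodes the BH3-only protein NOXA and is a target of p53 and of interferon regulatory factors, had 7.39, 7.37 and 7.33 against 11.31, 11.32 and 11.31, a rise of 3.95. Of 24 measured p53 targets 9 rose and 3 fell (median 0.05). The falls were those of ZMAT3 (by 0.59), CCNG1 (by 0.53) and TRIAP1 (by 0.23), of which the last passed only with all arrays or without empty vector replicate 3 (otherwise −0.26 to −0.14, adjusted p from 0.110 to 0.185). GDF15, a stress-induced cytokine, rose by 2.35, GADD45A by 1.03, SESN2 by 0.77 and CDKN1A, the cell cycle inhibitor p21, by 0.42, while BBC3 (−0.05) and BAX (−0.13), both of which promote cell death, did not pass.

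In the list of the unfolded protein response and ATF4 targets 21 of 35 rose and 4 fell (median 0.28), led by PPP1R15A, which lets translation restart after stress, at 1.64, DDIT3 at 0.89 and SLC3A2 at 0.84. DDIT4, SHMT2, CREB3L2 and PHGDH fell, by 0.16 to 0.27. HSPA5, the chief chaperone of the endoplasmic reticulum, rose by 0.30. Heat shock genes stayed near the background, with 5 of 20 higher and 2 lower. DNAJB4 rose by 0.84, HSPA6 by 0.42, HSPA1A and CHORDC1 by 0.33 each and DNAJA1 by 0.20, while HSPA4L fell by 0.32 and BAG3 by 0.22. Of 21 NRF2 targets 13 rose and 1 fell, among them ABCC2 by 1.56, HMOX1, which breaks down haem, by 1.35 and AKR1C1 by 1.20, and TALDO1 fell by 0.21. Of 28 lysosome and autophagy genes 20 rose and 1 fell, with GPNMB, a glycoprotein of lysosomes and melanosomes, far ahead at 3.0, then CTSL at 0.94, NPC1 at 0.90 and NPC2 at 0.78, and ULK1, a kinase that starts autophagy, fell by 0.22. Of 16 metallothioneins and zinc transporters 8 rose and 1 fell, with MT1M at 1.26 and SLC30A1, the zinc exporter, at 0.84, and SLC39A4, a zinc importer, fell by 0.21. Metallothionein genes are nearly identical in sequence, so their probes may read more than 1 of them. Of these small changes, leaving out 1 array ended the call of PHGDH in 5 of the 6 omissions (all but empty vector replicate 2, −0.18 to −0.13), of CREB3L2 and ULK1 in 4 each, both among them without control siRNA replicate 3 or empty vector replicate 1 or 3 (−0.17 to −0.14 and −0.22 to −0.17), of SLC39A4 in 4 (all but control siRNA replicate 3 and empty vector replicate 1, −0.21 to −0.17), of SHMT2 without control siRNA replicate 1 (−0.18) and of DNAJA1 without empty vector replicate 1 (0.19), with adjusted p from 0.102 to 0.262.

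Matrix and TGF-beta genes also lay above the background. MMP1, a collagenase, had log2 values of 6.86, 6.77 and 6.85 with control siRNA and of 10.68, 10.6 and 10.55 with the empty vector, a rise of 3.78 (standard error 0.06) or 13.8-fold. Of 36 matrix genes 22 rose and 4 fell, 16 of them called higher. COL4A1, a chain of basement membrane collagen, rose by 1.86, the protease MMP3 by 1.80, POSTN by 1.53, PLAT by 1.52 and COL1A1 by 1.40, while MMP2 fell by 0.84, TIMP3 by 0.29, COL6A1 by 0.18 and THBS1 by 0.16. Of 26 TGF-beta genes 17 rose and 5 fell. INHBA, the subunit of activin A, rose by 2.33, its antagonist FST by 1.84, the decoy receptor BAMBI by 1.39 and the ligand TGFB3 by 1.32. SKI and the receptor TGFBR2 fell by 0.42 each, LTBP1 by 0.41, SMAD2 by 0.22 and TGFBR3 by 0.18. Another cluster of SMAD2 differed by −0.56. Of 21 YAP and TEAD targets 11 rose and 4 fell, with CCN1 at 0.44 and CCN2 at 0.42, while AMOTL1 fell by 0.62, TEAD2 by 0.59, PTPN14 by 0.52 and TEAD4 by 0.27. The smallest of these falls depended on single arrays. THBS1 passed only with all arrays or without control siRNA replicate 1, TGFBR3 did not pass without control siRNA replicate 2 or 3 or empty vector replicate 1 or 3, and COL6A1 did not without control siRNA replicate 2 or empty vector replicate 1 or 3 (differences of −0.19 to −0.14, adjusted p from 0.102 to 0.206).

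The genes of G2 and M phase were lower with the empty vector. Of 55 measured members 50 fell and none rose at an adjusted p of at most 0.1, in 51 the empty vector arrays lay below all control siRNA arrays, and the median was −0.39. The changes were small, and 7 members passed the 1.5-fold call. CENPA, the histone of centromeres, had log2 values of 9.1, 9.09 and 9.04 against 8.39, 8.29 and 8.35, a difference of −0.73 (standard error 0.06). CCNB2, a cyclin of mitosis, had 10.1, 10.02 and 9.95 against 9.4, 9.21 and 9.31, which is −0.72 (standard error 0.07). The kinase NEK2 (−0.73), DLGAP5 (−0.72), CDCA3 (−0.71), ASPM (−0.62), CDK1 (−0.49) and MKI67, the proliferation marker Ki-67 (−0.25), also fell, and MELK and SKA1 did not pass. Averaged over the list, the control siRNA arrays gave 9.85, 9.87 and 9.83 and the empty vector arrays 9.47, 9.46 and 9.45. The ERβ2 siRNA arrays, also taken at 48 h, gave 9.44, 9.45 and 9.47 and the ERβ2 plasmid arrays 9.42, 9.46 and 9.4, so on this mean the control siRNA arrays stood apart from the other 3 groups.

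Genes of that phase are known to be held down outside it through the CHR element, TTTGAA (or TTCAAA on the other strand), often with CCAAT boxes next to it. The 120 bases before the start site are printed for the 4 of the 6 largest falls of the list in which a CHR element lies there, with both motifs in capitals.
CENPA (chr2:26785936-26786055, + strand): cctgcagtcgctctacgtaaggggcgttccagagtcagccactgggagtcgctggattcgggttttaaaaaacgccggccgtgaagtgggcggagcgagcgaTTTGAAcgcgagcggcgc
DLGAP5 (chr14:55191586-55191705, - strand): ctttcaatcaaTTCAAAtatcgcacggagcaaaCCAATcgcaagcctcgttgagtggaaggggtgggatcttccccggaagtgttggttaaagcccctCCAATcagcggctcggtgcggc
CCNB2 (chr15:59105026-59105145, + strand): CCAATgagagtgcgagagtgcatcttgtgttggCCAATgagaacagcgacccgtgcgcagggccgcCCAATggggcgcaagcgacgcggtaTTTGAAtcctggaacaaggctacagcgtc
ASPM (chr1:197146670-197146789, - strand): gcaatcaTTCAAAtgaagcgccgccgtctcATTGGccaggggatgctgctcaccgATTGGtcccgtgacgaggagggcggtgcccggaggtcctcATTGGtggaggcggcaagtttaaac
In CENPA only the CHR element is in this stretch, and in CCNB2 3 CCAAT boxes precede it. A promoter was found for 47 members, and 34 of these held a CHR element (72.3%) and 38 a CCAAT box (80.9%), against 15.2% and 34.6% of all windows and 15.8% and 42.4% of the measured genes with a promoter. The list was drawn up from genes of the cell cycle, so its motif shares say nothing about this comparison. Among all genes called lower, 21.9% held a CHR element and 54.6% a CCAAT box, against 15.7% and 42.2% of the genes not called.

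Genes of the G1 to S transition and of DNA replication showed no such shift, with 7 of 50 higher and 8 lower (median −0.04, and 5 lower without control siRNA replicate 1 or without empty vector replicate 3). CLSPN rose by 0.68 and ORC6 by 0.47, RRM1 fell by 0.41 and TK1 by 0.39. Of 47 replication-dependent histone genes 26 fell and 6 rose (median −0.25), among them H1-5, which fell by 0.84, and H4C8, which rose by 0.78. Histone genes of a family are close in sequence, so single values are uncertain. Of 28 genes of sterol and fatty acid synthesis 16 fell and 4 rose (median −0.23). MVK, a kinase of the mevalonate pathway, had log2 values of 7.35, 7.51 and 7.6 against 6.67, 6.83 and 6.56, a difference of −0.80, SREBF1, which drives fatty acid synthesis, fell by 0.57 and FDPS by 0.44, while STARD4, a sterol carrier, rose by 0.97, CYP51A1 by 0.30, SC5D by 0.27 and ELOVL6 by 0.23, the last not without control siRNA replicate 2 (0.20, adjusted p = 0.103). Of 33 respiratory chain genes 17 fell and 1 rose (CYCS, by 0.47), and of 38 cytosolic ribosomal protein genes 16 fell and none rose at that threshold, all of these falls being at most 0.45 on the log2 scale. These 2 counts moved with single arrays, to 11 respiratory genes without empty vector replicate 3, and to 7 and 8 ribosomal genes without control siRNA replicates 2 and 3. Of 35 hypoxia targets and glycolysis genes 12 fell, led by ALDOC at −1.11 and PDK1 at −0.80, and 8 rose, led by CA12 at 0.98. Without empty vector replicate 1 or 3, 7 of them fell. The shares of this list, 34.3% lower and 22.9% higher, lay not far from the 22.4% and 19.2% of all genes. The shares that fell were 55.3% of the histone, 57.1% of the sterol and fatty acid, 51.5% of the respiratory and 42.1% of the ribosomal genes.

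The largest falls were smaller than the largest rises. PTGIS, the enzyme that makes prostacyclin, had log2 values of 8.79, 8.7 and 8.83 with control siRNA and of 5.99, 6.08 and 6.05 with the empty vector, a difference of −2.73 (standard error 0.06), which is 6.65-fold lower. It was the only called gene with a fall of at least 4-fold. TNFRSF10D, a decoy receptor of TRAIL, had 9.36, 9.07 and 9.15 against 7.54, 7.73 and 7.44, a difference of −1.62 (standard error 0.10), while the ligand TNFSF10 rose. Further falls were those of OLFML2A (−1.35), TOB2 (−1.34, with −0.02 on another cluster of the gene), AFAP1L2 and LRATD2 (−1.33 each), ARRB1, which uncouples receptors from G proteins (−1.30), CERK, a ceramide kinase (−1.28), PDE8B (−1.21), ANK1 (−1.18), ACBD7 (−1.17), JUP, the junction protein plakoglobin (−1.16), and PITX1 (−1.15). The U5 small nuclear RNA genes RNU5D-1 and RNU5B-1, whose copies are close in sequence, differed by −1.38 and −1.15.

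**Figure D4:**
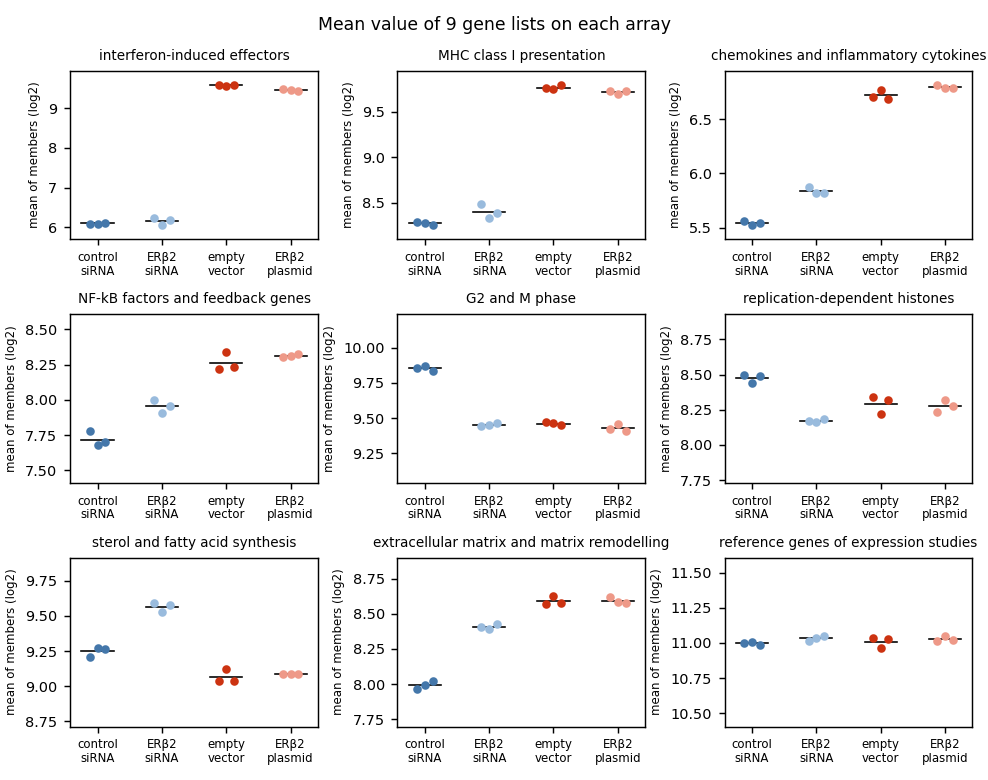
Mean log2 value of the members of 9 gene lists (vertical axes, not starting at 0 and of different span) on each of the 12 arrays, 1 point per array by group, with a bar for the mean of 3 arrays. The interferon-induced effectors are near 6.1 in both siRNA groups and near 9.5 in both plasmid groups, G2 and M phase is highest with control siRNA alone, and the reference genes lie between 10.96 and 11.05 on all arrays.

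Marker and reference genes gave the following. By rank of signal, which is not a rank of transcript levels, all 10 mesenchymal markers were at or above percentile 75 of the genes. VIM and CDH2 were among these. Of 15 luminal and epithelial markers 11 were below percentile 50, including ESR1, PGR, CDH1 and EPCAM. GATA3 and KRT18 of that list were at or above percentile 75. All 8 measured blood cell and all 6 endothelial markers were below percentile 50. Of the 10 mesenchymal markers 5 rose, among them SNAI2 by 0.89, and TWIST1 alone fell, by 0.50 (median of the list 0.15). Of the 15 luminal and epithelial markers 1 rose and 4 fell (median −0.13). KRT19 fell by 0.95, KRT18 by 0.89 and KRT8 by 0.59. Over all genes 19.2% rose and 22.4% fell. Of the blood cell markers CD14, which epithelial cells can also express, rose by 0.94. Of 8 reference genes 1 passed, TBP with a rise of 0.23, which did not pass without control siRNA replicate 2 (0.19, adjusted p = 0.117) or without empty vector replicate 1 (0.20, adjusted p = 0.113). GAPDH had log2 values of 13.04, 13.04 and 13.08 against 13.02, 12.97 and 12.99, and ACTB differed by −0.08. Array medians ran from 5.08 to 5.14 over the 6 arrays. The mean correlation of an array with its own group was 0.993 to 0.996 and with the other control 0.984 to 0.989. Of the genes that the study names, chosen on other contrasts of this series that share these controls, ESR2 differed by 0.02 (adjusted p = 0.846), TGFB3 rose by 1.32, RECK, an inhibitor of matrix proteases, by 0.50, EGLN3, the oxygen sensor PHD3, by 0.48, GAB1 by 0.20 and CDKN1A by 0.42, CCNA2 fell by 0.50 and WT1 by 0.45, and HIF1A (−0.07), E2F2 (−0.07) and CCNE2 (−0.02) did not pass. GAB1 did not pass without control siRNA replicate 2 or 3 or empty vector replicate 1 or 2 (0.16 to 0.20, adjusted p from 0.111 to 0.180). Another cluster of GAB1 differed by −0.01.

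The 6 arrays with ERβ2 plasmid and ERβ2 siRNA gave the same contrast of plasmid at 24 h with siRNA at 48 h in other cultures. There, 720 genes (4.01%) were called higher and 558 (3.11%) lower, with 19.4% and 22.7% at an adjusted p of at most 0.1 alone. Of these calls 56.3% were higher, and 48.1% with each array centred on its median (634 higher and 683 lower). Of the 1000 genes called higher with the empty vector, 442 were called higher here too, which is 44.2% of the one set and 61.4% of the other, and 788 were higher at an adjusted p of at most 0.1. Of the 233 genes called lower, 103 were called lower here too, 44.2% of the one set and 18.5% of the other. In 10 genes both comparisons gave a call in opposite directions. Over the 17958 genes, which are not independent of each other, the log2 differences of both comparisons had a Pearson correlation of 0.729.

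The interferon-induced genes rose in both. Of the 53 effectors 51 rose with the ERβ2 plasmid too, 50 of them the same genes, with a median of 3.16. IFI44L rose by 6.70, MX1 by 6.70, IFIT1 by 6.57, CXCL10 by 5.70, IFNB1 by 3.47 and IFNL1 by 1.89, and all 16 MHC class I genes rose again. For these 6 genes the difference between both comparisons did not pass (adjusted p from 0.132 for IFNL1 to 0.989 for CXCL10). The 95% interval of the rise of MX1 with the empty vector was 6.20 to 6.76. Among other effectors the difference was called for MX2 (1.95 against 0.85), RNF213 (1.93 against 0.84), PARP9 (3.58 against 2.92) and DDX60L (4.02 against 3.34). Each of them rose less in the second comparison.

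Over all genes 989 (5.51%) had a called difference between both comparisons, at least 1.5-fold and with an adjusted p of at most 0.1. At that p alone 15% had a smaller and 11.3% a larger value in the second comparison. By arithmetic this difference is the effect of the ERβ2 plasmid against the empty vector minus that of ERβ2 siRNA against control siRNA. This difference can thus come from the siRNA groups, and its sign is not that of an effect of added ERβ2 alone. It was called for 313 of the 1000 genes higher with the empty vector, 304 of them with a smaller or opposite value in the ERβ2 arrays, and for 43 of the 233 lower genes. Genes picked for a high value in one comparison tend to have a lower one in the other, so the choice of genes favours the direction seen in these 304. How much of the direction comes from this choice was not tested. MMP1 rose by 3.78 with the empty vector and by 0.98 with the ERβ2 plasmid, against siRNA arrays of 6.86, 6.77 and 6.85 (control) and of 9.38, 9.55 and 9.49 (ERβ2). The plasmid arrays lay close together, at 10.68, 10.6 and 10.55 and at 10.46, 10.5 and 10.41, so the siRNA groups were farther from each other than the plasmid groups were. The same held for TGFB3, with 6.62, 6.81 and 6.86 for control siRNA, 8.93, 8.84 and 8.83 for ERβ2 siRNA, 8.03, 8.18 and 8.03 for the empty vector and 8.31, 8.15 and 8.25 for the ERβ2 plasmid, so that its difference was 1.32 in one comparison and −0.63 in the other. The difference between both comparisons was also called for INHBA (2.33 against 0.67), CCL20 (2.23 against −0.09), IL6 (3.28 against 2.15) and PTGIS (−2.73 against −1.08).

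By list, the G2 and M phase genes had 44 of 55 members past an adjusted p of 0.1 for the difference (11 of them called). All of these were less lowered or higher in the second comparison, and the list had a median of −0.01 there against −0.39. Of the TGF-beta genes 19 of 26 passed, 17 of them with a smaller value, of the metallothioneins and zinc transporters 11 of 16, 7 of them with a larger value and 6 called, of the matrix genes 24 of 36, 21 with a smaller value and 12 called, and of the sterol and fatty acid genes 16 of 28, all with a smaller value and a median of −0.52 against −0.23. Of the effectors 16 of 53 passed, 14 with a smaller value, and of the MHC class I genes 8 of 16, 7 with a smaller value. Of the 13 genes that the study names 10 passed, 6 with a larger value, and 4 were called, a list that was chosen on these arrays. E2F2, a transcription factor of the cell cycle, had 5.89, 5.69 and 5.89 with ERβ2 siRNA and 7.04, 7.07 and 7.12 with the ERβ2 plasmid, against 7.06, 7.07 and 7.14 with control siRNA and 6.91, 7.12 and 7.04 with the empty vector. MT1F, a metallothionein, rose by 0.54 in one and by 2.50 in the other.

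**Figure D5:**
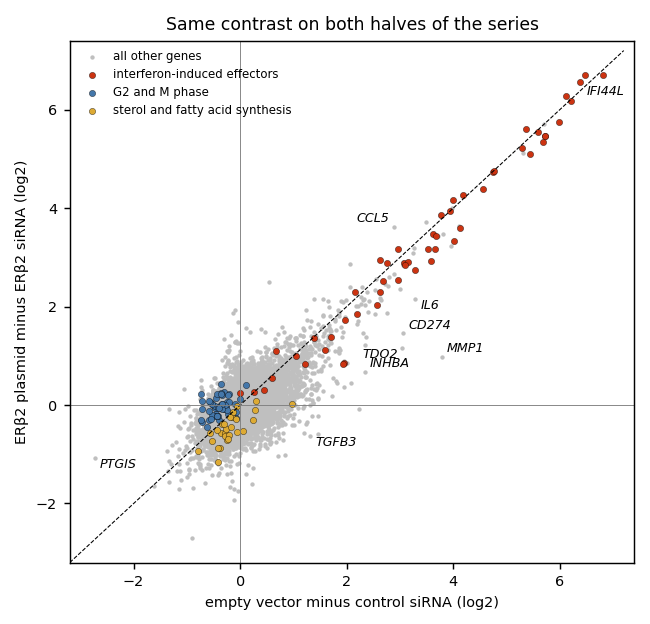
Log2 difference of empty vector minus control siRNA (horizontal axis) against that of ERβ2 plasmid minus ERβ2 siRNA (vertical axis) for each of the 17958 genes, from arrays that are not shared, with the line of equal values dashed. The interferon-induced effectors (red) lie along the line up to 6.81, the G2 and M phase genes (blue) lie mostly left of 0 but near 0 on the vertical axis, the genes of sterol and fatty acid synthesis (orange) lie mostly below the line, and MMP1, INHBA and TGFB3 lie below the line.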

How the data were processed

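Each of the 4 transfections of BT549 cells gave RNA for 3 whole-transcript arrays (Affymetrix, Human Gene 1.1 ST). The deposited log2 values were made by the authors with RMA in the Affymetrix Expression Console, a procedure that removes background, brings all arrays to a common distribution and fits 1 value to the probes of a transcript cluster. No base is stated for the logarithm, so base 2 was assumed, and no software version is given in the sources used here. RMA shrinks differences of dim probes, and no detection calls were used, so folds of genes near the bottom of the range are those of signals. An array has no read depth, and the precision is limited by 3 arrays per group. The labels do not say whether the arrays of a group came from separate cultures, which the study's methods call biological replicates.

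Clusters with exactly 1 symbol in the array annotation were kept, and for genes with more than 1 the brightest one on average across the 12 arrays. Symbols were updated through gene IDs for 19143 of 19181 clusters with the RefSeq table of GRCh38.p14. Groups were compared with limma 3.58.1 (lmFit and eBayes) in R 4.3.3, on the 6 arrays of each comparison without a replicate block, and the difference between comparisons in 1 fit of all 12 arrays. Benjamini-Hochberg adjustment ran over the p-values of all 17958 genes. The calls followed the fold, p and q limits of the study's methods, which used a t-test and q-values. The procedure was tested on simulated data.

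The members and the 32 gene lists were chosen with earlier results of these data known, and list medians and counts are descriptions with no set test. The text names the 15 largest rises and 15 largest falls among called genes whose groups did not overlap, up to 6 members of a list with the largest change in each direction, any member of a list of at most 20, reference genes and genes of the paper. The other list members named were picked after their values were seen. Alternatives were all clusters with 1 symbol or all clusters of the table, leaving out dim genes (a mean log2 value under 5), normalization again by quantiles or cyclic loess, centring on the median, the methods' t-test, an intensity trend with a robust prior, 1 fit of 4 groups, a replicate block, other cut-offs and leaving out each array.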

Additional observations from a re-analysis of the deposited data

Results flagged for a closer look

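Each gene below had a called difference between both comparisons, tested in 1 limma fit of the 12 arrays. The values are those of ERβ2 plasmid minus ERβ2 siRNA less those of empty vector minus control siRNA, on the log2 scale. A negative value thus means a lower value in the second comparison, which can be a smaller rise, a larger fall or a change of sign. It can come from the siRNA groups as well as from the plasmid groups. Its sign is therefore not that of an effect of added ERβ2 alone. Groups of 3 arrays are too small for a check of single stray arrays.

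Among secreted proteins and their inhibitors the difference was −2.80 for MMP1, −1.32 for MMP3, −1.37 for RECK, −1.95 for TGFB3, −1.66 for INHBA, −0.75 for FST, −1.14 for GDF15, −0.61 for COL1A1 and −0.66 for COL6A1. Of the cytokine and immune genes CCL20 had −2.32, IL6 −1.13, CCL5 0.73, CD274 −1.60, TDO2 −1.89 and C1S −0.69. Of the interferon pathway and NF-kB genes MX2 had −1.09, RNF213 −1.09, DDX60L −0.68, PARP9 −0.66, JAK2 −0.69, REL −0.97 and IRF9 0.60.

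Of the stress and lysosome genes PMAIP1 had −0.71, DNAJB4 −0.83, ABCC2 −0.77, AKR1C1 −0.77, CTSL −0.71 and GPNMB −0.65, and of the metabolic and hypoxia genes STARD4 had −0.94, CA12 −0.83 and EGLN3 −0.80. The keratins KRT18 and KRT8 had −0.80 and −0.70. Larger values in the second comparison were found for MT1F (1.95), PTGIS (1.65), LRATD2 (1.26), RNU5B-1 (1.01), KLF2 (0.78), ACBD7 (0.74) and TEAD4 (0.67). The cell cycle genes E2F2 (1.32), CENPA (0.95), CDCA3 (0.80), ORC6 (0.70) and CCNB2 (0.63) also had larger values there.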

How the results depend on the processing

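No value that passed its test turned its direction under any alternative run. Of the counts of genes called, 86 alternative values lay within 1.5 times the main one and 9 did not. With a fold change of at least 2 in place of 1.5, 369 genes were called higher and 28 lower with the empty vector (1000 and 233 at 1.5), and 253 and 89 with the ERβ2 plasmid (720 and 558). With no fold cut-off the counts were 3443 and 4024, and 3488 and 4075. With all clusters of the table, named or not, 355 were lower with the empty vector. Without 1 array at a time, 927 to 1069 genes were higher and 243 to 275 lower with the empty vector, 702 to 763 and 538 to 623 with the ERβ2 plasmid, and 887 to 1108 had a called difference between both comparisons, an alternative chosen after seeing the data. Arrays with the same replicate number did not deviate together (correlations of −0.24, −0.16 and 0.12 over the genes in the control arrays), so the numbers were not taken as pairs. With the number as a replicate block 1000 genes were higher and 231 lower with the empty vector, 720 and 558 with the ERβ2 plasmid, and 989 differed. Of the counts of list members 437 values lay within 1.5 times the main one and 13 did not. Beside those given above, G1 to S genes that fell were 13 after quantile normalization again or with the methods' q-values, and ribosomal genes that fell were 9 with cyclic loess, 28 with q-values and 25 with an intensity trend. Of the single gene values 3555 kept their side of the threshold, 77 no longer passed and 22 passed only under the alternative. The cause of these shifts was not tested. Signals near background limit the folds of dim genes, since their differences are compressed.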

Other observations

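Several immune gene groups outside the lists above held genes that rose with the empty vector. These groups were put together after their values were seen, so their counts are descriptions. Over all genes 19.2% rose and 22.4% fell, with a median of −0.06. Of 25 measured complement genes 11 rose, 1 fell and 13 did not pass, with a median of 0.003. C1S and C1R, the proteases that start the classical pathway, rose by 2.53 and 1.40 on the log2 scale, CFB, the protease of the alternative pathway, by 2.21 and SERPING1, which inhibits C1S and C1R, by 1.30. C1S had values of 6.96, 7 and 6.96 with control siRNA and of 9.5, 9.49 and 9.52 with the empty vector. In the apolipoprotein L family, proteins that include a blood factor against trypanosomes, APOL6 rose by 3.05, APOL1 by 1.99 and APOL2 by 1.39, while APOL5 fell by 0.33. Of 11 measured MHC class II genes 6 rose, with HLA-DRA at 1.48, HLA-DPA1 at 1.32 and the invariant chain CD74 at 1.02, while their transactivator CIITA differed by 0.09 and did not pass.

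Genes whose products use tryptophan, ligands of T cell checkpoint receptors and butyrophilins were among the rises. IDO1, which breaks down tryptophan, had log2 values of 4.8, 4.8 and 4.54 against 8.45, 8.63 and 8.36, a rise of 3.77, and TDO2, which catalyses the same step, rose by 3.04, from 7.59, 8.11 and 7.94. WARS1, which loads tryptophan onto its tRNA, rose by 1.68. Of 15 measured ligands of T cell checkpoint receptors and butyrophilins 8 rose and 1 fell. CD274, which encodes PD-L1, rose by 3.06 with 5.54, 4.99 and 5.28 against 8.29, 8.34 and 8.36, PDCD1LG2 (PD-L2) by 1.69, and BTN3A1 and BTN3A3 by 1.70 and 1.68. ICOSLG, a costimulatory ligand, fell by 0.96. In the second comparison IDO1 rose by 3.84 and CD274 by 1.46.

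All 5 measured U5 small nuclear RNA genes fell, with differences of −1.38 to −0.52, and 1 of them fell in the second comparison. Of 5 keratins of simple epithelium KRT8, KRT18 and KRT19 fell in both comparisons. CH25H, which makes a sterol that blocks viral entry, rose by 4.11 with the empty vector and by 3.64 with the ERβ2 plasmid.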
